A study of Homo sapiens with 4 samples.

Results

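The genes described here are 47 genes of the actin cytoskeleton, of focal adhesions and of the YAP pathway, out of 60671 genes measured in 22RV1 and PC3 cells. They were chosen by name as known parts of these structures, after the opposite changes of VCL in the 2 cell lines had been seen, so the values of VCL are a description and support nothing. All 47 symbols were paired with 1 Ensembl identifier each. 22RV1 and PC3 are established human prostate carcinoma lines, and each was studied as stable, puromycin-selected cells carrying a lentiviral shRNA in the pLKO.1 vector. The cells grew in RPMI medium with serum. The 4 groups were 22RV1 shCON, 22RV1 shDDX52, PC3 shCON and PC3 shDDX52, where shCON is a control sequence and shDDX52 targets DDX52, a DEAD-box RNA helicase. Each group had 1 library and each target 1 hairpin, so no difference below has a replicate check, an error or a p-value. The values are TPM, a transcript share corrected for transcript length, and the read number that each rests on is unknown.

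Actin filaments are built from the cytoplasmic actins ACTB and ACTG1, are coated by tropomyosins, crosslinked by filamin and alpha-actinins, and pulled by non-muscle myosin II. They end on focal adhesions, where integrins bind the matrix outside the cell, and talin, vinculin, paxillin and zyxin couple them to actin inside. Tension on these fibres is known to move the coactivators YAP1 and WWTR1 (TAZ) into the nucleus, where they act with TEAD factors on target genes such as CCN1, CCN2, ANKRD1 and AXL.

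The change with DDX52 knockdown is given as a log2 ratio, log2((TPM shDDX52 + 1)/(TPM shCON + 1)), which understates changes of low values. A gene was counted as higher or lower when it passed 1.5-fold on this scale. It also had to reach 1 TPM in 1 or both libraries of that line, and such genes are called measured. DDX52 itself was at 24.6% of its control TPM in 22RV1 and at 22.5% in PC3. Of the prostate kallikreins, KLK2 was 32.6 and 23.1 TPM and KLK3 6.84 and 4.51 TPM in 22RV1, shCON first, and PC3 had both at a listed 0. Of the 12 smooth muscle and fibroblast markers, 5 reached 1 TPM in each cell line, though not the same 5. The summed TPM of all 12 was 90.0 and 93.3 in 22RV1 and 134 and 136 in PC3, shCON first. SMTN held most of that sum, and MYH11 stayed under 0.4 TPM in each library. In 22RV1, 1 of its 5 measured markers was higher and 2 lower, beside 5.61% and 8.47% of all genes measured there. COL1A1 rose from 2.81 to 4.77 TPM, DCN fell from 1.87 to 0.28 TPM, and LUM, a stromal proteoglycan, fell from 16.5 to 6.91 TPM. In PC3 0 passed 1.5-fold. CNN1, a defining smooth muscle marker, was listed at 0 in both 22RV1 libraries and was 0.59 and 0.52 TPM in PC3. ACTA2 lay between 3.08 and 3.64 TPM in the 4 libraries. ACTG2 was 3.77 and 5.26 TPM in PC3 and was listed at 0 in 22RV1. The part of these markers in the results was not tested.

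In PC3 cells, 10 of the 46 genes that reached 1 TPM were at least 1.5-fold higher with shDDX52 and 1 was lower. That is 21.7% higher and 2.17% lower, beside 8.95% and 9.84% of the 14262 genes measured in that line. Without VCL, whose rise in PC3 is part of how the genes were chosen, 9 of 45 were higher (20%). In 22RV1 cells, 0 of 41 genes were higher and 2 were lower (4.88%), beside 5.61% and 8.47% of 14438 genes, so the 22RV1 share was not above the background. The 10 genes higher in PC3 were AXL, TEAD1, CCN1, CNN3, ANKRD1, MYH9, CALD1, CCN2, ACTN1 and VCL, and the 1 lower was TPM2. The 2 lower genes in 22RV1 were CNN3 and ITGB1. In bulk RNA, more transcript in every cell and more cells that carry the transcript cannot be told apart.

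The median log2 ratio of the measured genes was 0.28 in PC3, beside −0.04 for all genes there. In 22RV1 it was −0.06, beside −0.08, and 32 of the 41 genes lay within 1.2-fold of the control. The summed TPM of all 47 genes went from 17285 to 20709 in PC3 and from 12399 to 11600 in 22RV1. At 2-fold, 5 genes were higher in PC3 and 0 lower (2.86% and 3.44% of all genes), and 0 were higher and 1 lower in 22RV1 (2.24% and 2.86%). Most of these genes are well expressed, so they were also set beside genes with at least 10 TPM. Among these, 9 of 41 were higher, VCL included, and 0 lower in PC3, beside 6.21% and 7.49% of 7500 genes. In 22RV1, 0 of 29 were higher and 2 lower, beside 2.69% and 5.32% of 7142 genes.

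**Figure D1:**
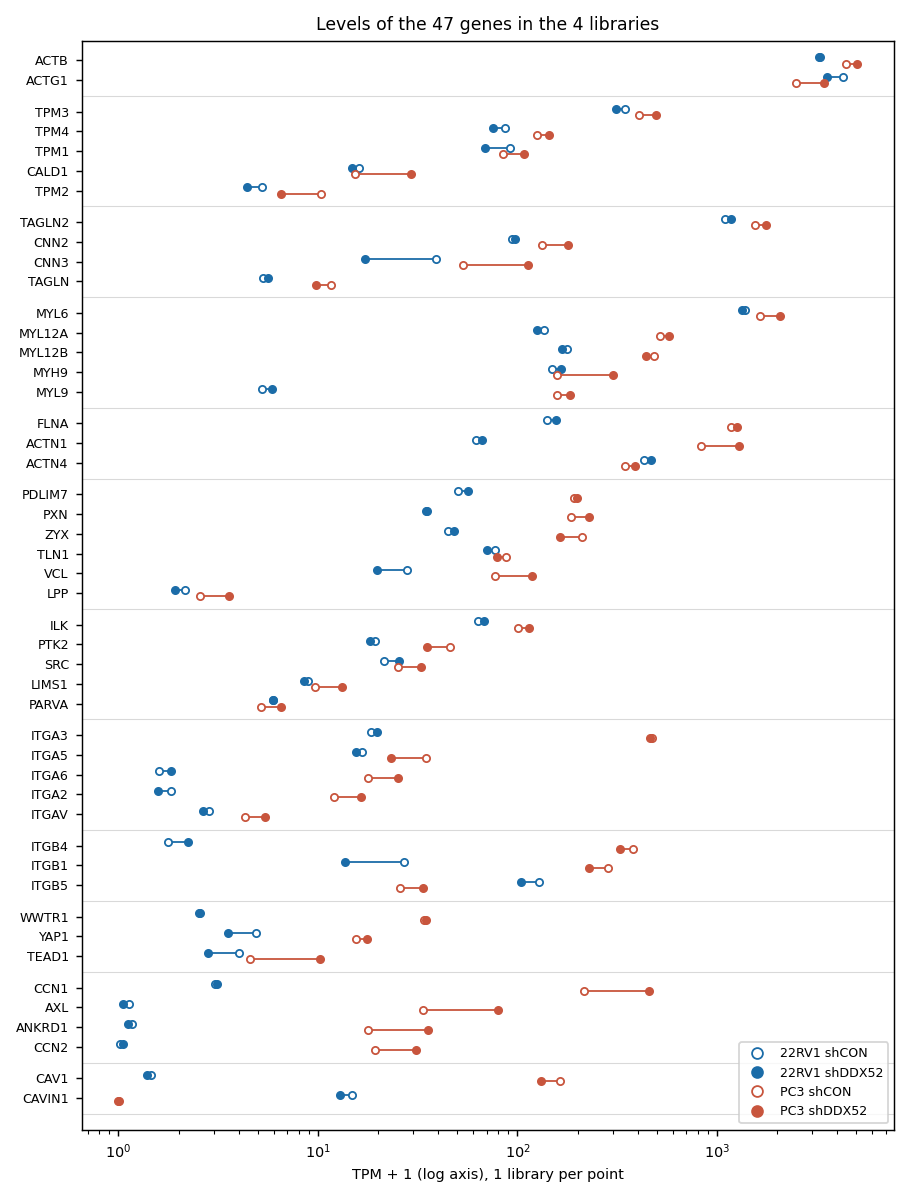
TPM plus 1 on a log axis for each of the 47 genes, grouped by role, with 1 open circle for the shCON and 1 filled circle for the shDDX52 library of each cell line and no error bar, since each point is 1 library. CCN1 moves from 215 to 455 TPM in PC3, and CNN3 moves down in 22RV1 and up in PC3.

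Of the 12 groups into which the genes were sorted by role, the YAP target genes had the highest median log2 ratio in PC3, 1.04. In PC3 all 4 were higher with shDDX52, and in 22RV1 3 of the 4 were under 1 TPM in both libraries. AXL, a receptor tyrosine kinase, went from 32.6 to 79.3 TPM in PC3, a log2 ratio of 1.26. CCN1, a secreted matricellular protein, went from 215 to 455 TPM (1.07), and its relative CCN2 from 18.2 to 30.0 TPM (0.69). ANKRD1, an ankyrin-repeat protein of muscle and nucleus, went from 16.8 to 34.7 TPM (1.01). In 22RV1, CCN1 was 2.04 and 2.13 TPM, ANKRD1 0.17 and 0.11, AXL 0.13 and 0.05, and CCN2 0.02 and 0.05 TPM, shCON first. The target genes were thus measurable as a group in PC3 only.

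The factors themselves moved less evenly. TEAD1, a DNA-binding partner of YAP1, rose in PC3 from 3.54 to 9.19 TPM (log2 ratio 1.17) and was 3.03 and 1.81 TPM in 22RV1 (−0.52). YAP1 was 14.5 and 16.7 TPM in PC3 (0.19) and 3.89 and 2.55 TPM in 22RV1 (−0.46). WWTR1 was 33.1 and 33.7 TPM in PC3 and 1.56 and 1.52 TPM in 22RV1. With 1 TPM added in the ratio, only TEAD1 among these factors passed 1.5-fold, and only in PC3. With 0.1 TPM added instead, TEAD1 (−0.71) and YAP1 (−0.59) were also past 1.5-fold lower in 22RV1. The other TEAD genes did not pass it in either line: TEAD2 was 54.6 and 51.7 TPM in PC3, TEAD3 17.0 and 20.3, and TEAD4 22.5 and 23.1.

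A list of 18 other YAP-TEAD targets, none of them among the 47, gave 8 higher and 0 lower of 18 measured in PC3. Their median log2 ratio was 0.46. Like the other further lists, it was chosen with earlier results of these data known, so its counts are a description and no independent check. In 22RV1, 2 of 13 were higher and 0 lower, with a median of −0.04. Over all genes measured, 8.95% were higher and 9.84% lower in PC3, and 5.61% and 8.47% in 22RV1. IGFBP3, an IGF-binding protein, rose in both lines, from 261 to 736 TPM in PC3 and from 71.4 to 154 TPM in 22RV1. CRIM1 rose in PC3 from 14.2 to 32.6 TPM and NT5E, an ecto-nucleotidase, from 7.42 to 17.3 TPM. Of 18 genes of the Hippo kinase cascade and its TEAD partners, 4 were higher and 0 lower in PC3 and none passed 1.5-fold in 22RV1, where the median was 0.01. LATS2, a kinase that restrains YAP1 and is itself a YAP target held by both lists, rose in PC3 from 2.61 to 6.82 TPM. AMOTL1, VGLL4 and WWC1 were the other 3 higher genes of the cascade list.

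**Figure D2:**
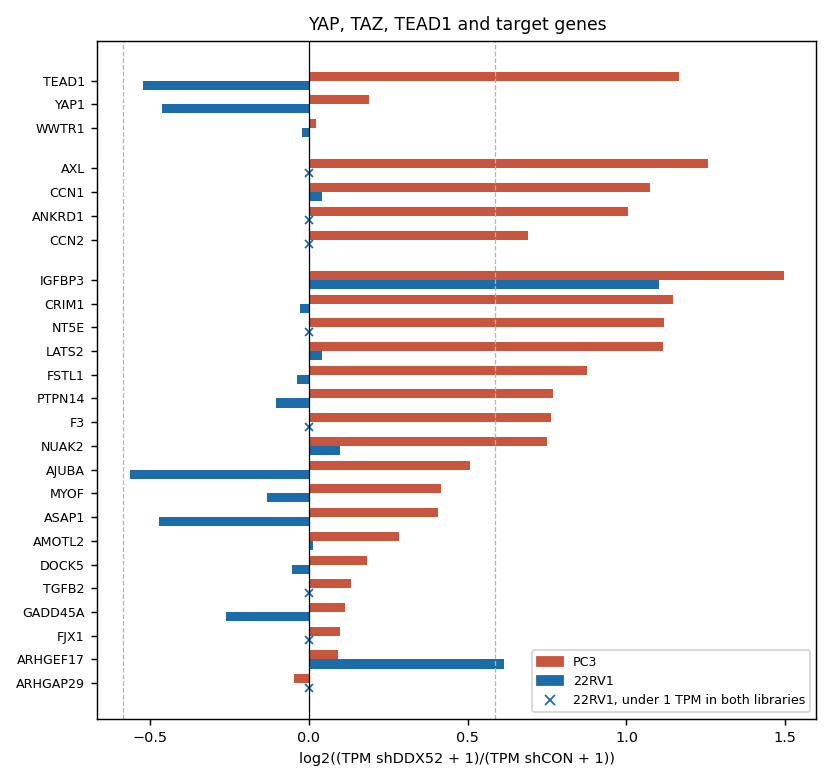
Log2 ratio of shDDX52 over shCON for the YAP, TAZ and TEAD1 genes, the 4 target genes and 18 other YAP-TEAD targets, with red bars for PC3, blue bars for 22RV1, crosses for genes under 1 TPM in both 22RV1 libraries, dashed lines at 1.5-fold and 1 library behind each arm. AXL at 1.26 and IGFBP3 at 1.49 lead the PC3 bars, while in 22RV1 IGFBP3 and ARHGEF17 alone pass 1.5-fold upward.

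CCN2, ANKRD1 and VCL were higher in PC3, though the rise of VCL is part of how the genes were chosen and supports nothing. Their RefSeq promoter windows (GRCh38.p14) are shown for that reason, and each gene has 1 window listed. Each is the 250 bases before the annotated start, read 5′ to 3′ on the strand of the gene, at chr6:131951373-131951622 (minus strand), chr10:90921088-90921337 (minus strand) and chr10:73997866-73998115 (plus strand). Capitals mark the TEAD motif GGAATG and the AP-1 motif TGANTCA, each searched on both strands.
CCN2: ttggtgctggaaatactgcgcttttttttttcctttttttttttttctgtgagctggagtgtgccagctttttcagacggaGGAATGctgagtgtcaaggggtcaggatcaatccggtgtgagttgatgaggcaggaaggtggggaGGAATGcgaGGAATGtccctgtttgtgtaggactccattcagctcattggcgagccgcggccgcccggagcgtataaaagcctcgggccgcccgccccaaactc
ANKRD1: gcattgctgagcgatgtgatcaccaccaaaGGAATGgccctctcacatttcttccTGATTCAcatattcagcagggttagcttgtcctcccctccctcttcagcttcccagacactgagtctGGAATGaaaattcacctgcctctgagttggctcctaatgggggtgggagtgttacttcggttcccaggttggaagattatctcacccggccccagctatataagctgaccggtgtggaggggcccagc
VCL: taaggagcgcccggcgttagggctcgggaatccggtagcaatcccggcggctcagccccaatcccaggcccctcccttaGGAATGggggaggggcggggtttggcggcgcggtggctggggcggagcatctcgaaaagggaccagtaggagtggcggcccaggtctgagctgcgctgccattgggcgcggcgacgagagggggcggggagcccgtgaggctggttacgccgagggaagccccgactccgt
CCN2 held 3 copies of GGAATG, starting 169, 104 and 95 bases before the start. ANKRD1 held 2 copies, at 220 and 128 bases, and TGATTCA at 195 bases. VCL held 1, at 171 bases. A table entry was found for 36 of the 47 genes, with 73 windows, since some genes have several starts. GGAATG stood in 15 of these windows (20.5%), which belong to 13 genes, and in 11.9% of all 35116 windows. The 13 were ACTN1, ANKRD1, AXL, CALD1, CCN2, CNN3, ITGA5, ITGB1, LPP, MYH9, PXN, VCL and YAP1. Of these, ITGA5, ITGB1, LPP, PXN and YAP1 did not pass 1.5-fold upward in PC3. CCN1 and TEAD1, both higher in PC3, are not among the 13, for lack of the motif or of an entry. The windows shown are thus a choice, and whether the motif goes with the rise was not tested. The AP-1 motif stood in 8 windows (11.0%), beside 6.57%, and the CArG box, the motif of serum response factor, in 6 windows (8.22%), beside 1.16%. The genes with a CArG box were ACTG1, ACTN1, CNN2, FLNA, LPP and TPM4, and of these only ACTN1 passed 1.5-fold, in PC3. These matches describe letters in a window and not bound sites.

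Among the filament proteins, the actins were the most abundant, and neither passed 1.5-fold. ACTB was 3295 and 3256 TPM in 22RV1 and 4454 and 5058 TPM in PC3, shCON first, and ranked between 19 and 36 of all genes in the 4 libraries. ACTG1 was 4295 and 3578 TPM in 22RV1 (log2 ratio −0.26) and 2478 and 3429 TPM in PC3 (0.47). The actins have many processed pseudogenes, and the 12 ACTB and 21 ACTG1 copies named by symbol together held at most 0.109% of the TPM of their parent gene in any library. How the authors split shared reads is not stated.

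The tropomyosins were lower than control in 22RV1 in all 4 cases without passing 1.5-fold, with log2 ratios from −0.41 (TPM1, from 90.6 to 68.0 TPM) to −0.14 (TPM3, from 344 to 311 TPM). For TPM3 the value became 0.04 once ratios were centred by transcript length and GC. In PC3, TPM1 went from 83.8 to 107 TPM, TPM3 from 404 to 491 and TPM4 from 124 to 143, each under 1.5-fold, whereas TPM2 fell from 9.38 to 5.54 TPM (−0.67). CALD1, the actin- and myosin-binding caldesmon, rose in PC3 from 14.4 to 28.3 TPM (0.93) and was 15.1 and 13.8 TPM in 22RV1.

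With 1 TPM added in the ratio, CNN3, a calponin that binds actin filaments, alone of the 47 genes passed 1.5-fold in both lines. It did so in opposite directions. It fell in 22RV1 from 37.8 to 16.2 TPM, 42.8% of control (log2 ratio −1.18), and rose in PC3 from 52.5 to 112 TPM, 213% of control (1.07). None of the other calponins and transgelins passed 1.5-fold in either line. CNN2 was 92.7 and 96.2 TPM in 22RV1 and 132 and 179 TPM in PC3, TAGLN2 1095 and 1179 TPM in 22RV1 and 1552 and 1762 TPM in PC3, and TAGLN at most 10.6 TPM in any library.

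Of the non-muscle myosin II genes, the heavy chain MYH9 rose in PC3 from 156 to 300.4 TPM (log2 ratio 0.94) and was 148 and 164 TPM in 22RV1. The light chains did not pass 1.5-fold in either line. MYL6 was 1648 and 2067 TPM in PC3 and 1387 and 1328 TPM in 22RV1, and the near-identical regulatory chains MYL12A and MYL12B had log2 ratios of 0.15 and −0.14 in PC3 and of −0.11 and −0.09 in 22RV1. Reads of these paralogues may be split between them, so their single values are uncertain. MYL9, the third regulatory chain, was 156 and 182 TPM in PC3 but 4.25 and 4.91 TPM in 22RV1. MYLK, the kinase that activates these light chains and no member of the 47, fell in 22RV1 from 7.82 to 2.32 TPM (−1.41) and rose in PC3 from 3.42 to 17.7 TPM (2.08). Of the crosslinkers, ACTN1 rose in PC3 from 835 to 1294 TPM (0.63) and was 60.9 and 65.3 TPM in 22RV1. FLNA (1178 and 1259 TPM in PC3) and ACTN4 (345 and 389 TPM in PC3) did not pass 1.5-fold in either line.

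At the adhesion plaque, VCL, which encodes the vinculin protein that links talin to actin, was 27.0 and 18.7 TPM in 22RV1 (log2 ratio −0.51) and 76.2 and 117 TPM in PC3 (0.61). The 22RV1 value lay just under 1.5-fold and the PC3 value just over it. These are the values that led to the choice of the list. The other plaque genes did not pass 1.5-fold. ZYX, a LIM protein of tensed fibres, was 210 and 162 TPM in PC3 (−0.37), PXN 185 and 226 TPM (0.29), TLN1 86.8 and 77.7 TPM (−0.16), PDLIM7 190 and 197 TPM (0.05) and LPP 1.55 and 2.59 TPM (0.49). In 22RV1 these 5 ranged from −0.17 (LPP) to 0.18 (PDLIM7). TLN1 and ZYX therefore had negative log2 ratios in PC3, where VCL had a positive one.

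The kinases and the ILK complex, which couple integrins to actin and to signalling, stayed within 1.5-fold in both lines. PTK2, which encodes focal adhesion kinase, was 44.8 and 34.1 TPM in PC3 (log2 ratio −0.39), and SRC was 24.1 and 31.8 TPM (0.38). ILK was 99.6 and 113 TPM in PC3, LIMS1 8.65 and 12.2 TPM, and PARVA 4.19 and 5.52 TPM. In 22RV1 this group ranged from −0.08 (PTK2) to 0.26 (SRC, from 20.4 to 24.6 TPM). Of 24 other focal adhesion genes, 3 of 23 measured were higher and 0 lower in PC3, beside 8.95% and 9.84% of all genes. In 22RV1, 0 of 20 were higher and 2 lower, beside 5.61% and 8.47%. TLN2, a second talin, rose in PC3 from 3.87 to 12.2 TPM, and the adaptor CRK fell in 22RV1 from 14.8 to 7.71 TPM.

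No integrin among the 47 genes passed 1.5-fold upward in either line. ITGB1, the beta chain of most matrix receptors, fell in 22RV1 from 26.1 to 12.6 TPM, 48.2% of control, and was 282 and 228 TPM in PC3 (−0.30). Its copy ITGB1P1 was listed at 7.80 and 5.73 TPM in 22RV1 and at 93.3 and 59.1 TPM in PC3, so reads may be shared between the 2 genes. The sum of both genes gave a log2 ratio of −0.85 in 22RV1 and of −0.38 in PC3. ITGB4, the laminin receptor chain of hemidesmosomes, was 379 and 325 TPM in PC3 and 0.78 and 1.23 TPM in 22RV1. ITGB5, a vitronectin receptor chain, was 24.8 and 32.7 TPM in PC3 and 127 and 104 TPM in 22RV1.

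Of the alpha chains in PC3, ITGA5, the fibronectin receptor chain, was 33.6 and 22.3 TPM (log2 ratio −0.57), just under 1.5-fold. ITGA6 was 16.8 and 24.2 TPM (0.50), ITGA2 11.1 and 15.4 TPM (0.44), ITGAV 3.29 and 4.43 TPM (0.34) and ITGA3, the highest alpha chain, 473 and 461 TPM (−0.04). In 22RV1, ITGA2 and ITGA6 stayed under 1 TPM and ITGA3, ITGA5 and ITGAV lay between −0.11 and 0.10. Of 12 other integrin genes, 1 of 6 measured was higher and 1 lower in PC3, where the leukocyte chain ITGB2 fell from 104 to 68.1 TPM. In 22RV1, 0 of 4 were higher and 1 lower, ITGA1, from 13.0 to 7.11 TPM. Among 14 matrix ligands, 3 of 12 measured were higher and 1 lower in PC3, and 3 of 8 higher and 1 lower in 22RV1. Both lists are small, and the shares over all genes were 8.95% higher and 9.84% lower in PC3, and 5.61% and 8.47% in 22RV1. THBS1, thrombospondin, rose in PC3 from 185 to 473 TPM and LAMA5 fell there from 151 to 94.1 TPM. FN1, fibronectin, fell in 22RV1 from 52.4 to 28.7 TPM and COL4A2 rose there from 6.07 to 9.81 TPM.

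The genes of caveolae, small membrane pits that flatten under tension, were split between the lines. CAV1 was 162 and 130 TPM in PC3 (log2 ratio −0.31) and 0.45 and 0.39 TPM in 22RV1. CAVIN1 was listed at 0.01 and 0 TPM in PC3 and was 13.8 and 12.0 TPM in 22RV1.

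Outside these families, 30 other actin-binding genes had 2 higher and 2 lower in PC3, beside 8.95% and 9.84% of all genes. In 22RV1 they had 0 higher and 3 lower, beside 5.61% and 8.47%. MSN, which encodes the membrane linker moesin, rose in PC3 from 136 to 255 TPM (log2 ratio 0.90) and fell in 22RV1 from 12.3 to 6.04 TPM (−0.91). TMSB4X, the actin monomer binder thymosin beta 4, fell in PC3 from 2757 to 1624 TPM. SRF was 20.7 and 26.4 TPM in PC3 and 19.1 and 21.8 TPM in 22RV1, and its coactivators MRTFA and MRTFB also did not pass 1.5-fold.

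**Figure D3:**
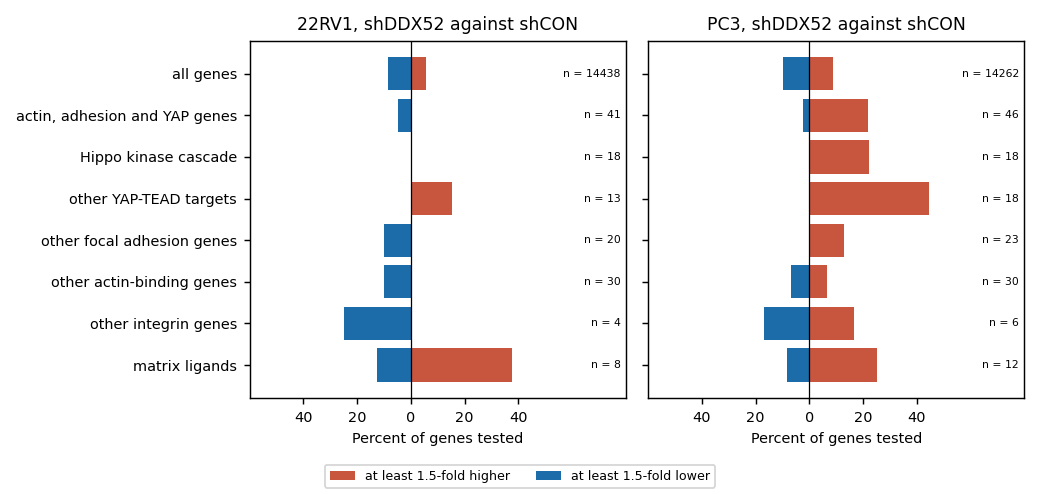
Percent of measured genes at least 1.5-fold higher (red, to the right) or lower (blue, to the left) with shDDX52 in 22RV1 and PC3, for all genes, for the 47 actin, adhesion and YAP genes and for 6 further lists, with the number measured at the right and 1 library behind each arm. In PC3 the other YAP-TEAD targets reach furthest, with 8 of 18 higher, beside 8.95% of all genes. The further lists were chosen with earlier results of these data known.

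Set side by side, 40 of the 47 genes were measured in both lines, and each line has its own control. Of these, 18 were lower in 22RV1 and higher in PC3, 4 were higher in 22RV1 and lower in PC3, 12 were higher in both and 6 lower in both, counting any difference. The 22 genes with opposite signs are 55%, beside 48.8% of the 12175 genes measured in both lines, which is near the background. Without VCL they are 21 of 39 (53.8%). They were 17 when ratios were centred on the median of all genes, and 15 when centred on transcript length and GC content. The share of all genes was not recounted after centring. The 18 genes lower in 22RV1 and higher in PC3 are 45%, beside 27.4% of those genes, and without VCL they are 17 of 39 (43.6%). This share depends on the directions within each line, so it is no separate result. By any difference, 35 of 46 measured genes were higher in PC3 and 25 of 41 were lower in 22RV1. A link between the directions in the 2 lines was not tested. Many of the 22RV1 ratios lie close to 0, and in that line 14 genes changed sign under at least 1 other scaling or centring, each with a log2 ratio of at most 0.15 in size.

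**Figure D4:**
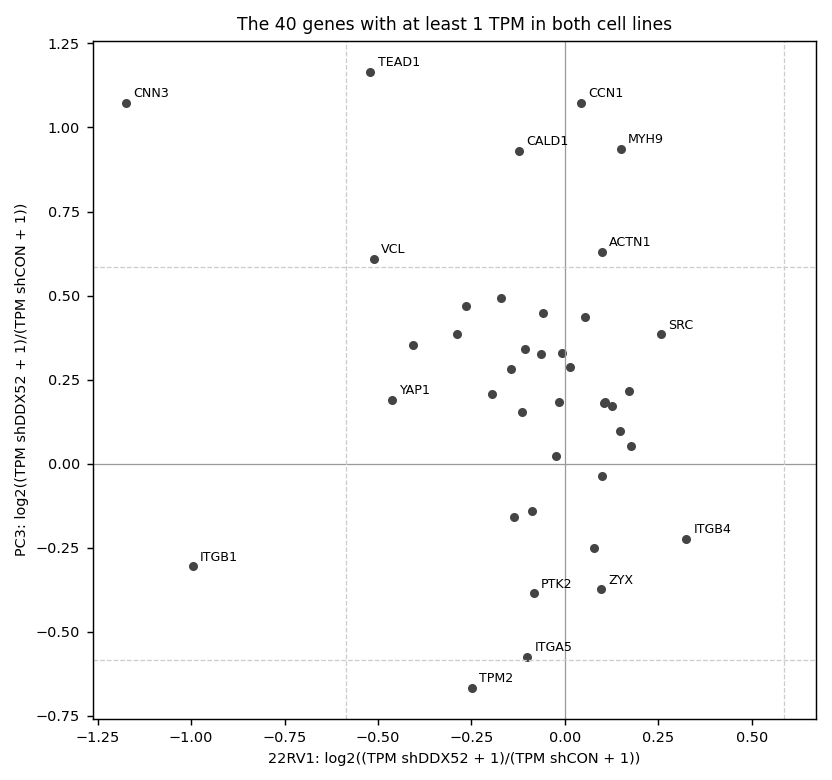
Log2 ratio of shDDX52 over shCON in 22RV1 (horizontal) and PC3 (vertical) for the 40 genes measured in both lines, 1 point per gene, with dashed lines at 1.5-fold. CNN3 lies at −1.18 and 1.07, the only point beyond the dashed lines of both axes, and most points lie above 0 on the PC3 axis.

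The control cells already differed in these genes. The tables of the 2 lines were normalized separately, so levels across them are a description. In PC3 shCON, 27 of the 47 genes were at least 1.5-fold higher than in 22RV1 shCON (57.4%) and 3 were lower, beside 29.3% and 32.2% of 15727 genes. At 2-fold, 24 were higher, beside 19.9%, and the median log2 ratio of PC3 over 22RV1 was 1.05, beside −0.07 for all genes. The 12 genes at least 10-fold higher were ITGB4, CAV1, CCN1, MYL9, AXL, ITGA3, CCN2, ANKRD1, ACTN1, WWTR1, ITGA6 and ITGB1. The share of all genes past 10-fold was not counted, so these are named as a description. ITGB4 was 379 TPM against 0.78, CAV1 162 against 0.45 and MYL9 156 against 4.25. The 3 lower genes were CAVIN1, ITGB5 and ACTG1. All 4 YAP targets that were higher with shDDX52 in PC3 were thus among those with the larger starting level there, whereas MYH9 (148 and 156 TPM), CALD1 (15.1 and 14.4 TPM) and TEAD1 (3.03 and 3.54 TPM) started at similar levels in 22RV1 and PC3.

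Several library properties moved with the PC3 result. Nuclear protein-coding genes held 88.4% of the TPM in PC3 shCON and 81.3% in PC3 shDDX52, against 85.0% and 83.7% in 22RV1, and genes annotated as rRNA held 0.0923% and 3.13% in PC3 and 1.21% and 0.0872% in 22RV1, shCON first. When TPM was rescaled over nuclear protein-coding genes, the median in PC3 went from −0.04 over all genes to 0.09 over those nuclear genes and that of the listed genes from 0.28 to 0.41, so the distance between them was 0.32 before and 0.33 after. Long transcripts were also higher in PC3 shDDX52. In the quintile of nuclear protein-coding genes with the longest transcripts the median log2 ratio was 0.13 and 13.7% were at least 1.5-fold higher, against −0.17 and 4.73% in the quintile with the shortest, and in the quintile next to the longest they were 0.06 and 8.21%. In 22RV1 the corresponding medians were −0.11 and −0.04. Of the listed genes measured in PC3, 10 lie in the longest quintile, 14 in the next, 6 in the middle one, 9 in the one below and 7 in the shortest.

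Each log2 ratio was also set against the median of genes with a like transcript length and GC content. The median of the listed genes in PC3 was then 0.26, and 8 of them were at least 1.5-fold higher, beside 8.8% of all genes. These 8 were AXL, TEAD1, CCN1, CNN3, ANKRD1, MYH9, CALD1 and CCN2. VCL, with a longest annotated transcript of 7995 bases, then had 0.41 in PC3 and −0.35 in 22RV1, and ACTN1 had 0.53, both under 1.5-fold. CCN1 (2290 bases), CCN2 (2339), ANKRD1 (1979) and CNN3 (2165) have short transcripts, while TEAD1 (8477) and MYH9 (7554) have long ones. The further lists, the other YAP-TEAD targets and the Hippo cascade among them, were not recounted after this centring. The other YAP-TEAD targets higher in PC3 ranged from F3 (2287 bases) to PTPN14 (12985). The part of transcript length in their counts was not tested.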

How the data were processed

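RNA-seq of 22RV1 and PC3 cells with shCON or shDDX52 was analysed, with 1 library for each of the 4 conditions. Total RNA was used for Illumina TruSeq libraries. The authors had the reads mapped on their provider's online platform and deposited TPM per Ensembl gene, and the submitters' processing notes name CASAVA, HISAT2 and hg19. The quantification program, annotation release and handling of multi-mapped reads are not given in the sources used here. Of 60671 identifiers, 42020 were paired with a symbol and 58453 were found in GENCODE 29 on GRCh38, which gave gene types and transcript lengths. Sequences are those of RefSeq and are not tied to the build of the deposited values.

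With 1 library a group no test was made. Log2 ratios used a pseudocount of 1 TPM, a gene counted as measured where 1 or both libraries of a line reached 1 TPM, and it was called at 1.5-fold. TPM keeps no depth, so no counting interval is given. The 47 genes and the further lists, with markers of smooth muscle and fibroblasts among them, were chosen with earlier results of these data known. Genes were named by rule: those past 1.5-fold, VCL, DDX52, the highest and lowest of each role group by mean TPM, those nearest the threshold, those under 1 TPM, and of each further list the largest rise and fall past 1.5-fold with at least 5 TPM. TEAD2 to TEAD4, CRIM1, NT5E, SRF, MRTFA, MRTFB and the other named cascade and marker genes were added after their values were seen. Some lists and genes are not reported here. The script was tested on simulated data. Other pseudocounts, filters, scalings and thresholds were tried. Centring on length and GC content, in 10 bins each, and leaving out VCL were added once the data had been seen. Python 3.11.15, numpy 2.4.6 and pandas 2.3.3 were used.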

Additional observations from a re-analysis of the deposited data

Results flagged for a closer look

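CNN3, TEAD1 and VCL were at least 1.5-fold changed in 1 line and at least 1.2-fold in the opposite direction in the other. The log2 ratio in PC3 minus that in 22RV1 was 2.25 for CNN3, 1.69 for TEAD1 and 1.12 for VCL. With 1 library per condition these differences were not tested. VCL was part of the reason for the choice of genes.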

How the results depend on the processing

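The 8 list results were recomputed under 62 alternatives, of which 51 left direction and size about the same, 9 moved the value and 2 turned its sign. The median in 22RV1, −0.06, became 0.0131 when centred on the median of all genes and 0.0179 when centred on transcript length and GC content (added after seeing the data), which take out the shift of all genes. The median in PC3 moved to 0.41 with nuclear protein-coding scaling. With a pseudocount of 0.1 TPM, 4 genes were lower in 22RV1, YAP1 and TEAD1 among them, and 1 was higher, and 2 were lower in PC3. With nuclear protein-coding scaling 0 were lower in PC3. With a threshold of 2-fold, 1 was lower in 22RV1, 0 were lower and 5 higher in PC3. With at least 5 TPM, 14 genes had opposite signs, since fewer were measured. Centring on the median of all genes gave 17 and centring on length and GC content 15, both among the alternatives counted as about the same. ACTB drops out where the 20 highest genes are left out of the scaling. Of 13 single calls, 10 passed 1.5-fold under each of the 5 alternatives run for single genes. The exceptions in PC3 were VCL (lowest 0.41), ACTN1 (lowest 0.53) and TPM2 (highest −0.56). For TPM2 the causes were not tested. No paired analysis was possible because a condition is 1 library here. Since TPM keeps no depth, what depth limits is unknown.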
